A study of Spodoptera litura with 9 samples.

Results

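A set of 18 long non-coding RNAs (lncRNAs) in the testis of the moth Spodoptera litura, the tobacco cutworm, had at most 5 counts in every library of larvae before testis fusion and at least 20 in every library of a later stage. Libraries came from testes at 3 stages, with 3 libraries a stage: L6D4 (larvae of the sixth instar at 4 days, with the testes still apart), L6D6 (the same instar at 6 days, as prepupae with the testes fusing) and P0D (pupae on day 0, with fusion past). No strain, treatment or genotype differed by the labels. Larvae were reared on an artificial diet, and the P0D labels name no food. The protocol names 9 male individuals and 3 repeats a stage without dividing the males among the libraries, so p-values measure the spread between libraries, which may be technical. Age, moult and fusion move together over these stages and cannot be told apart.

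Members were taken from the assembled transcripts, whose IDs begin with MSTRG. A transcript had to be alone in its locus in the table, which left 1561 of 2476 rows. Of these, 188 had 5 counts or fewer in each L6D4 library, and 18 of the 188 also had 20 or more in all 3 L6D6 libraries or in all 3 P0D libraries. The members were thus chosen by the counts of all 3 stages, so their low level at L6D4 and their higher level later are given as a description with no test. The minimum was met at both later stages by 8 members, at L6D6 only by 3 and at P0D only by 7. Only the 8 that met it at both stages could be tested between P0D and L6D6, since the other 10 entered through 1 later stage.

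LncRNAs are transcripts without a long reading frame. Some act on chromatin, on splicing or as binding partners of proteins and small RNAs, and for many no role is known. Insect testes are known for many lncRNAs limited to steps of germ cell development. In many moths the paired larval testes join into a single organ around pupation, at a time when ecdysteroid hormones drive the moult and sperm develop inside cysts of germ cells wrapped by somatic cells. The sources used here pair none of the 18 IDs with a gene, so no role, position, length or sequence is given for them. The testis label was not checked against marker genes, since the table used here holds lncRNAs only.

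**Figure D1:**
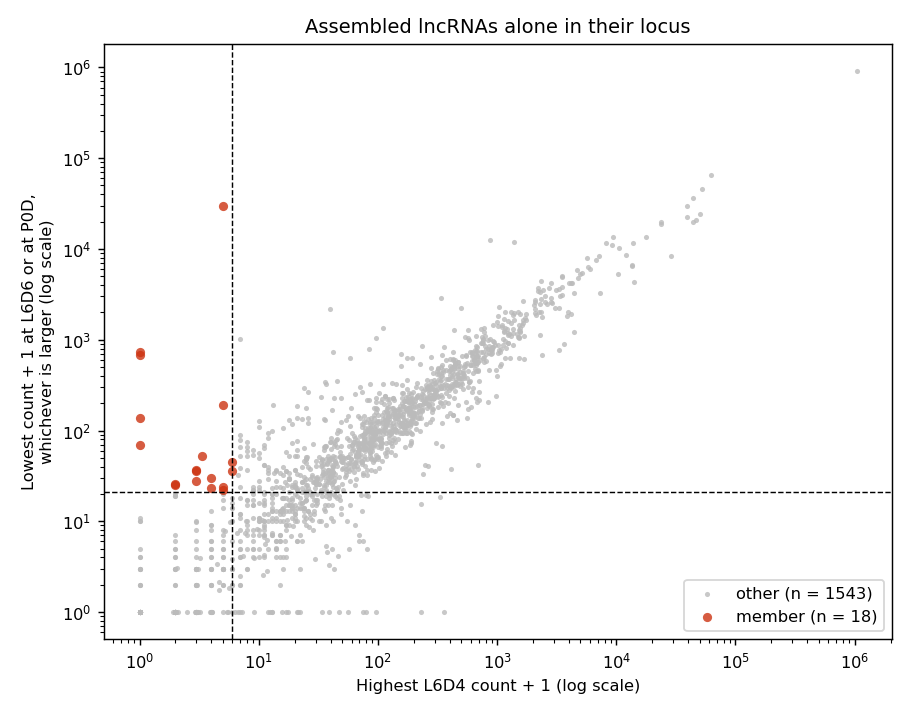
Each point is 1 of the 1561 assembled lncRNAs that are alone in their locus, placed by its highest L6D4 count (x, plus 1, log scale) and by its lowest count at L6D6 or P0D, whichever is larger (y, plus 1, log scale). Dashed lines mark 5 counts (vertical) and 20 counts (horizontal). The 18 members (red) lie above the horizontal line and on or to the left of the vertical one, and the other 1543 are grey.

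Library totals lay between 2665564 and 4262520 lncRNA counts. Levels are given in CPM, a count taken as a share of the library's lncRNA total after TMM scaling, which leaves reads of other RNAs out of the total. After this scaling 1 count was worth between 0.295 and 0.506 CPM at L6D4 and between 0.234 and 0.277 CPM at L6D6 and P0D. Every L6D4 library was thus effectively smaller than every later one. The rule's limits on raw counts were easier to meet for that reason. P0D-3 stood apart in composition, with a TMM factor of 1.448, and its 10 top lncRNAs held 59.42% of its counts, against 64.26% to 72.09% in the other libraries. The lowest TMM factor was 0.741, in L6D4-3, which also had the smallest effective size, 1975149 counts. In a whole testis, fewer cells of a type and less RNA per cell cannot be told apart.

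At L6D4, 24 of the 54 member values were 0, and the counts of a member summed over the 3 libraries lay between 0 and 13, with a median of 3.5. At L6D6 and at P0D only 1 of 54 values each was 0, and the median sums were 105 and 115.5 counts. Added over all 18 members, the mean level with its SD over 3 libraries was 9.28 ± 4.08 CPM at L6D4, 8489 ± 500.4 CPM at L6D6 and 2291 ± 416 CPM at P0D. Most of that sum was MSTRG.15510.1. Without it, the other 17 members summed to means (± SD, n = 3) of 7.94 ± 3.72 CPM at L6D4, 703 ± 72.7 CPM at L6D6 and 241 ± 44.2 CPM at P0D. Most of this sum at L6D6 was MSTRG.13874.1, MSTRG.15511.1 and MSTRG.20834.1, with means of 314, 184 and 86.6 CPM. The fall from L6D6 to P0D in both sums does not describe most members. By mean CPM, 11 of the 18 were higher at P0D and 7 at L6D6.

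**Figure D2:**
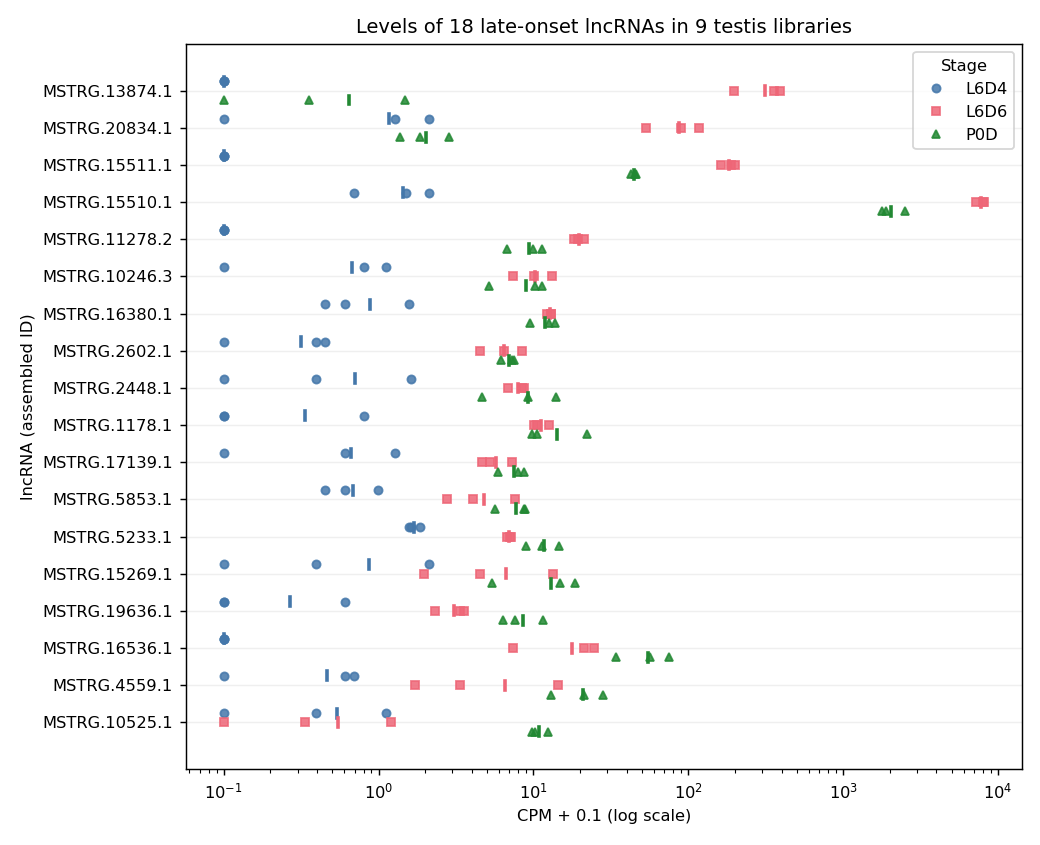
CPM (plus 0.1, log scale) of each of the 18 members in each of 9 libraries, with circles for L6D4, squares for L6D6 and triangles for P0D; short bars are stage means, and members run from the lowest P0D level relative to L6D6 (top) to the highest (bottom). MSTRG.13874.1 and MSTRG.20834.1 stand high at L6D6 alone, and MSTRG.10525.1 stands high at P0D alone.

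MSTRG.15510.1 and MSTRG.15511.1, whose IDs are consecutive, came on at L6D6 and lasted to P0D at a lower level. MSTRG.15510.1 had 2, 4 and 4 counts in the L6D4 libraries, 29788, 30898 and 29421 in the L6D6 libraries, and 6446, 9770 and 7442 in the P0D libraries. The stages did not overlap, and the 3 L6D6 libraries lay close together, with a coefficient of variation (CV, the SD as a percentage of the mean) of 6.38%. From 10 counts at L6D4 in all, the L6D6 level was 6371 times the L6D4 level, with a 95% counting interval of 3464 to 13286. This interval, like those on ratios below, comes from an exact binomial split of the summed counts and covers counting error only. Ratios given with such an interval are of counts summed over a stage and scaled to depth. By mean CPM, the ratio for MSTRG.15510.1 was 5814. MSTRG.15511.1 had 0 counts throughout L6D4, 744, 696 and 681 counts at L6D6, and 164, 181 and 169 at P0D. Against a floor of 3 counts over the 3 L6D4 libraries it was at least 499.9-fold higher at L6D6 and at least 122-fold higher at P0D.

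Both fell by P0D and neither went back to its larval level. MSTRG.15510.1 averaged 2049 ± 387 CPM at P0D and 7786 ± 497 CPM at L6D6 (SD, n = 3 each), so that P0D held 26.3% of the L6D6 level (log2 fold change -1.93, SE 0.20, adjusted p = 0.000106). MSTRG.15511.1 averaged 44.7 ± 1.84 CPM at P0D and 184 ± 18.9 CPM at L6D6 (SD, n = 3 each), or 24.3% of the L6D6 level (log2 fold change -2.04, SE 0.20, adjusted p = 0.00023). These p-values are from edgeR's quasi-likelihood test with Benjamini-Hochberg adjustment over all 1913 tested lncRNAs. Both calls held under each of 17 alternatives, DESeq2 and limma-voom included, with adjusted p between 5.93e-22 and 0.00115 for MSTRG.15510.1 and between 2.16e-20 and 0.00471 for MSTRG.15511.1. Without P0D replicate 3, MSTRG.15510.1 had an adjusted p of 0.000566 and MSTRG.15511.1 one of 0.00158 by edgeR.

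The count of MSTRG.15510.1 divided by that of MSTRG.15511.1 was 39.3, 54.0 and 44.0 in the P0D libraries and 40.0, 44.4 and 43.2 in the L6D6 libraries, so the ranges of this ratio overlapped between the stages. Transcript lengths were not used here, so the ratio is one of counts and not of molecules.

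MSTRG.13874.1 and MSTRG.20834.1 came on at L6D6 and were near 0 again at P0D. MSTRG.13874.1 had no count at L6D4, 732, 1521 and 1406 counts at L6D6, and 5, 1 and 0 counts at P0D. Every L6D6 library lay far above every other library, at a mean of 314 ± 103 CPM (SD, n = 3), at least 862-fold higher than at L6D4. The 6 counts at P0D were 0.174% of the L6D6 level by mean CPM. MSTRG.20834.1 had 4, 0 and 4 counts at L6D4, 439, 382 and 191 at L6D6, and 10, 5 and 7 at P0D. Its L6D6 level was 89.4 times the L6D4 level (95% counting interval 45.2 to 208). At P0D it stood at 1.93 ± 0.76 CPM, against 1.07 ± 1.02 CPM at L6D4 (SD, n = 3 each), and these ranges overlapped. Both met the minimum at L6D6 only, so each had to be under 20 counts in at least 1 P0D library, and the step down is given with no test.

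MSTRG.11278.2 came on at L6D6 and was still present at P0D. It had no count at L6D4, 68, 82 and 76 counts at L6D6, and 24, 44 and 39 at P0D. Every P0D library lay below every L6D6 library, with 9.23 ± 2.36 CPM at P0D and 19.5 ± 1.45 CPM at L6D6 (SD, n = 3 each). The difference did not pass the adjusted threshold (log2 fold change -1.07, SE 0.32, 95% interval -1.80 to -0.35, edgeR unadjusted p = 0.00809, adjusted p = 0.191). Against the L6D4 floor it was at least 53.3-fold higher at L6D6 and at least 25.5-fold higher at P0D.

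MSTRG.16536.1 had its highest values at P0D. It had no count at L6D4, 79, 31 and 88 counts at L6D6, and 205, 292 and 135 at P0D. The libraries of the later stages did not overlap, with 55.0 ± 20.3 CPM at P0D and 17.6 ± 9.11 CPM at L6D6 (SD, n = 3 each). This difference had a log2 fold change of 1.65 (SE 0.44, 95% interval 0.65 to 2.65) and did not pass edgeR's adjusted threshold (unadjusted p = 0.00435, adjusted p = 0.133). DESeq2 and limma-voom did call it (adjusted p = 0.00813 and 0.0468), and edgeR's adjusted p lay between 0.107 and 0.401 when single libraries were left out. It was at least 46.7-fold higher at L6D6 and at least 150.3-fold higher at P0D than the L6D4 floor.

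The other 4 members that met the minimum at both later stages had between 20 and 87 counts in every later library. MSTRG.16380.1 had 5, 1 and 1 counts at L6D4, 48, 55 and 44 at L6D6, and 45, 54 and 37 at P0D, with a log2 fold change of -0.09 (SE 0.35, 95% interval -0.86 to 0.67) for P0D over L6D6. MSTRG.10246.3 had 0, 2 and 2 counts at L6D4, 27, 56 and 36 at L6D6, and 37, 44 and 20 at P0D (log2 fold change -0.20, SE 0.49, 95% interval -1.27 to 0.88). For both, the later stages overlapped, and the intervals are too wide to call the levels equal. MSTRG.1178.1 had 0, 2 and 0 counts at L6D4, 47, 45 and 36 at L6D6, and 35, 41 and 87 at P0D, where P0D-3 was far above the other pupal libraries. Its log2 fold change was 0.35 (SE 0.45), and without P0D replicate 3 it was -0.13. MSTRG.5233.1 had 5, 5 and 3 counts at L6D4, 25, 30 and 25 at L6D6, and 53, 44 and 35 at P0D. Each of its P0D libraries lay above each L6D6 library, at 11.6 ± 2.91 CPM for P0D and 6.88 ± 0.16 CPM for L6D6 (SD, n = 3 each). The difference was 0.74 on the log2 scale (SE 0.33, edgeR unadjusted p = 0.0471, adjusted p = 0.412). With 13 counts in all at L6D4, MSTRG.5233.1 stood at 4.35 times its L6D4 level at L6D6 (95% counting interval 2.41 to 8.53).

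Over the 8 members testable between P0D and L6D6, 2 fell and 0 rose by edgeR's quasi-likelihood test. Both falls were those of the consecutively numbered MSTRG.15510.1 and MSTRG.15511.1, and whether these are separate transcripts was not tested. The background in the same fit was 1.31% of 1913 lncRNAs called lower at P0D and 0.470% called higher, 1.78% in all. DESeq2 called 3 of the 8 (2 lower, 1 higher) against a background of 3.29%, and limma-voom called 3 of the 8 (2 lower, 1 higher) against 2.40%. At an unadjusted p under 0.05 there were 5 of the 8, beside 11.7% of all tested lncRNAs. Their P0D CPM lay wholly below L6D6 for 3 and wholly above it for 2, beside 9.46% and 8.00% of all tested lncRNAs (17.5% in either direction). The median log2 fold change was -0.15 over the 8 and 0.01 over all tested lncRNAs, and the 8 values ran from -2.04 to 1.65. A change smaller than 2-fold was fitted for 4 of the 8 and for 92.8% of all tested lncRNAs.

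**Figure D3:**
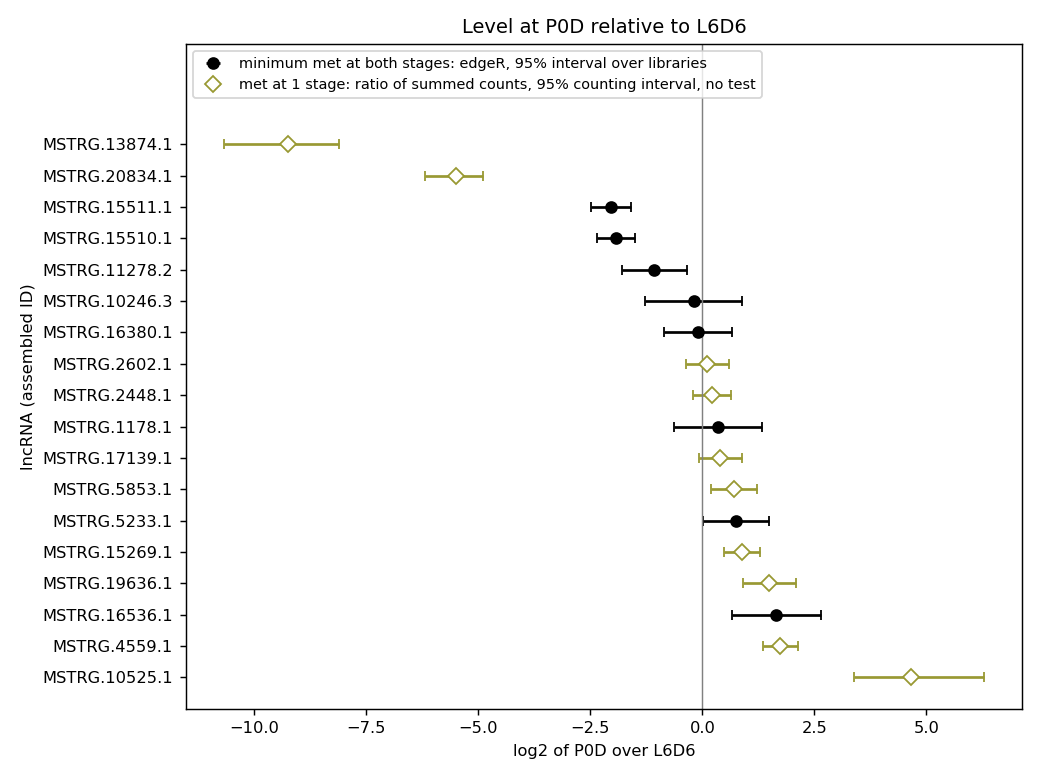
Log2 of the P0D level over the L6D6 level for all 18 members. Black circles are the 8 members that met the minimum at both later stages, with edgeR's fitted value and 95% interval over libraries. Open diamonds are the 10 that met it at 1 stage, with the ratio of summed counts and a 95% counting interval and no test. MSTRG.15510.1 and MSTRG.15511.1 lie near -2, MSTRG.13874.1 and MSTRG.20834.1 far below them, and MSTRG.10525.1 farthest above 0.

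Of the 7 members that met the minimum at P0D only, MSTRG.10525.1 was the member still near 0 at L6D6. It had 1, 0 and 2 counts at L6D4, 0, 1 and 4 at L6D6, and 35, 40 and 49 at P0D. The 3 P0D libraries lay above all 6 earlier ones, at a mean of 10.7 ± 1.43 CPM (SD, n = 3). The P0D level was 25.0 times the L6D6 level (95% counting interval 10.4 to 78.5). Each of the 7 had to have 20 counts or more in every P0D library and under 20 in at least 1 L6D6 library. Their steps up are therefore given with no test.

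The other 6 of these were already counted in every L6D6 library, at a level that varied. MSTRG.4559.1 had 2, 0 and 1 counts at L6D4, 6, 14 and 52 at L6D6, and 77, 110 and 51 at P0D. Only L6D6-3 reached the pupal range, and the CV within L6D6 was 108%. MSTRG.15269.1 had 1, 0 and 4 counts at L6D4, 7, 57 and 16 at L6D6, and 67, 58 and 21 at P0D, so here L6D6-2 was the high library and P0D-3 the low one. MSTRG.5853.1 had 3, 1 and 1 counts at L6D4, 10, 17 and 27 at L6D6, and 31, 34 and 22 at P0D, with L6D6-3 inside the pupal range. These members show that no L6D6 library was highest throughout. MSTRG.19636.1 had 0, 0 and 1 counts at L6D4, 13, 14 and 8 at L6D6, and 27, 45 and 25 at P0D, and its later stages did not overlap. Its P0D level was 2.80 times the L6D6 level (95% counting interval 1.88 to 4.24). The rule partly set this step too, so it is a description with no test.

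MSTRG.17139.1 and MSTRG.2602.1 met the minimum at P0D only because of single L6D6 libraries. MSTRG.17139.1 had 4, 0 and 1 counts at L6D4, 17, 22 and 26 at L6D6, and 31, 31 and 23 at P0D. MSTRG.2602.1 had 1, 1 and 0 counts at L6D4, 31, 27 and 16 at L6D6, and 26, 29 and 24 at P0D. The mirror case was MSTRG.2448.1, with 1, 0 and 3 counts at L6D4, 32, 29 and 30 at L6D6, and 50, 36 and 18 at P0D, which met it at L6D6 only because P0D-3 had 18 counts. For these 3 members the ratio of P0D to L6D6 lay between 1.08 and 1.32, and the CPM of the later stages overlapped, which is a description and no test.

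In CPM, every L6D6 library lay above every L6D4 library for 16 of 18 members, all but MSTRG.10525.1 and MSTRG.15269.1. The same held at P0D for 16 of 18, all but MSTRG.13874.1 and MSTRG.20834.1. Among all tested lncRNAs the shares were 21.7% and 18.7%, but the rule itself sets these counts among members. By mean CPM, 11 members were higher at P0D and 7 were higher at L6D6. The rule partly sets this split, since 7 members entered through P0D only and 3 through L6D6 only. Among the 8 that met the minimum at both stages, the fitted change was negative for 5 and positive for 3. Over all tested lncRNAs the median log2 fold change of P0D over L6D6 was 0.01.

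Several members sat close to the rule's limits. At the L6D4 limit, MSTRG.16380.1 and MSTRG.5233.1 were just inside with a highest L6D4 count of 5, and MSTRG.3298.3 was just outside with 5.65. Another 7 transcripts that met the later minimum were outside with 6, MSTRG.1014.1, MSTRG.1219.1 and MSTRG.5852.1 among them. The one with the highest later counts, MSTRG.17050.1, named after its values were seen, had 6, 2 and 3 counts at L6D4, 1249, 1125 and 1019 at L6D6, and 24, 22 and 10 at P0D. At the later limit, MSTRG.15269.1 was inside with a lowest count of 21 at P0D, MSTRG.5853.1 with 22.25 and MSTRG.17139.1 with 23, while MSTRG.12757.1 and MSTRG.4659.1 were outside with 19, and MSTRG.7716.1 and MSTRG.8296.1 with 18. With counts first scaled to a common library size of 3407468, 10 of the 18 still met the rule. Of the other 8, 6 were over 5 at L6D4 and 2 missed the later minimum alone. MSTRG.15510.1 was among the 6, as its 4 counts in L6D4-3, the smallest library, became 6.90.

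Whole values and ID endings were not conditions of the rule and were compared with the rest of the table as a description. The shares of whole values are not matched for level, since 24 of the 54 member values at L6D4 were 0, which is whole. All 9 deposited values were whole numbers for 13 of 18 members (72.2%), against 63.5% of the 1561 assembled transcripts alone in their locus. MSTRG.11278.2, MSTRG.16536.1, MSTRG.20834.1, MSTRG.4559.1 and MSTRG.5853.1 carried decimals. An estimated count with decimals can come from reads divided among features, and the sources used here do not say how reads were assigned. The ID ended in 1, the first transcript of its locus, for 16 members (88.9%) and for 86.2% of those 1561. No members had identical rows.

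Some rows numbered next to a member shared its profile. An assembler usually numbers loci in the order it meets them along the genome, but no coordinates were used here and it was not tested whether these rows lie side by side. A row numbered 1 step away was in the table for 7 members, and 5 of these rows were not members themselves. For 3 of the 5, the mean CPM at L6D6 or P0D was at least 4 times the L6D4 mean, beside 7.53% of 1647 tested assembled rows that are not members. This limit of 4-fold was chosen after the values were seen. Of 6 tested rows numbered 2 steps away, 0 reached it, and the highest was MSTRG.17141.1, beside MSTRG.17139.1, at 2.91-fold.

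MSTRG.10524.2, numbered next to MSTRG.10525.1, had 39, 22 and 31 counts at L6D4, 33, 78 and 46 at L6D6, and 2526, 2880 and 2176 at P0D. Like MSTRG.10525.1 it was high in the 3 pupal libraries alone, and it rose at P0D against L6D6 (log2 fold change 5.62, SE 0.31, edgeR adjusted p = 8.73e-07). MSTRG.2601.1, next to MSTRG.2602.1, had 110, 85 and 91 counts at L6D4, 1176, 1499 and 1046 at L6D6, and 1470, 1623 and 1344 at P0D. Its mean was 36.1 ± 8.73 CPM at L6D4, 318 ± 30.3 CPM at L6D6 and 386 ± 41.1 CPM at P0D, each with its SD over 3 libraries, and the log2 fold change of P0D over L6D6 was 0.28 (SE 0.18, edgeR adjusted p = 0.622). MSTRG.5852.1, next to MSTRG.5853.1, had 2, 6 and 1 counts at L6D4, 50, 25 and 31 at L6D6, and 53, 53 and 38 at P0D, and missed the rule by 1 count in L6D4-2. MSTRG.13873.1, next to MSTRG.13874.1, and MSTRG.16535.1, next to MSTRG.16536.1, did not share the member's onset. Their largest later mean was 1.54 and 1.11 times the L6D4 mean.

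**Figure D4:**
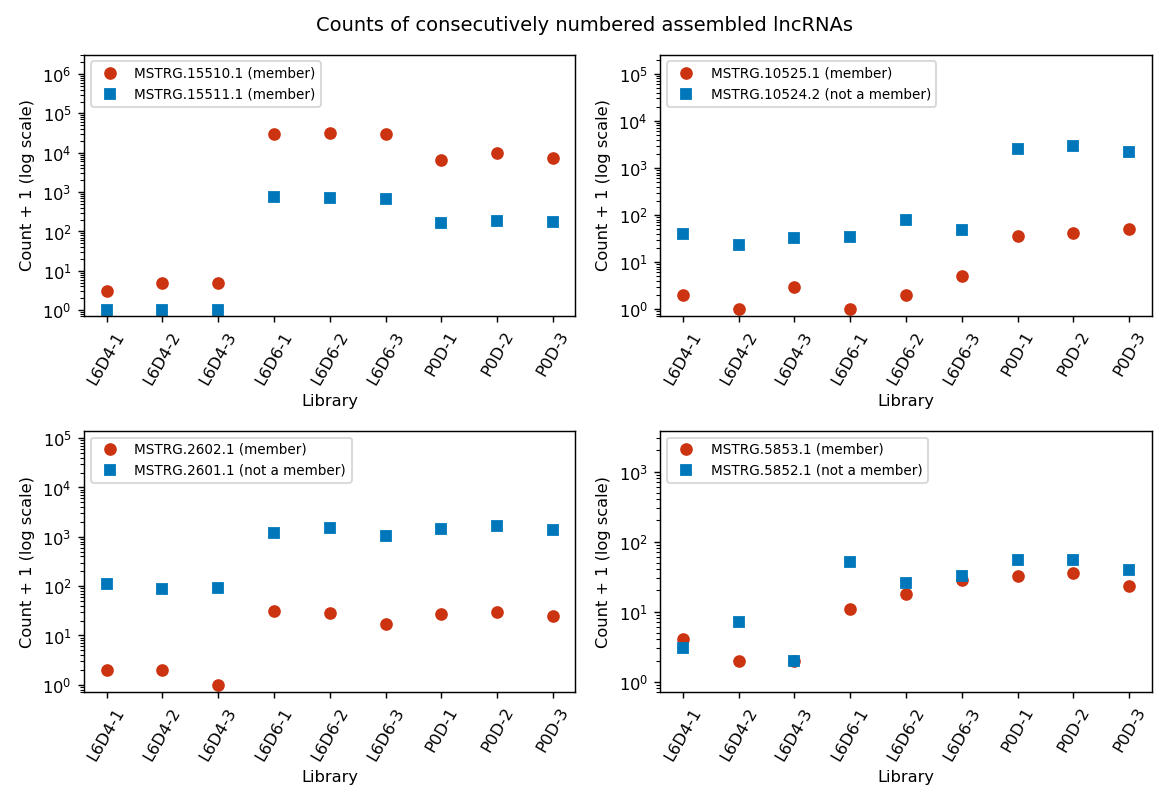
Counts (plus 1, log scale) in each of the 9 libraries for 4 pairs of consecutively numbered assembled lncRNAs, with the member as red circles and the row numbered next to it as blue squares (MSTRG.15511.1 is itself a member). MSTRG.10525.1 and MSTRG.10524.2 are high at P0D alone, and the other pairs shown are already above all their L6D4 counts at L6D6. The pairs were chosen after their values were seen. Not shown are MSTRG.13873.1 with MSTRG.13874.1 and MSTRG.16535.1 with MSTRG.16536.1, which did not share an onset.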

How the data were processed

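The authors deposited expected counts (estimated counts, not scaled to depth) per lncRNA transcript. Per the labels' protocols, libraries were made from RNA freed of ribosomal RNA, with dUTP in the second strand, and read on an Illumina instrument, although the labels give the molecule as polyA RNA. The submitters' processing notes name StringTie 1.3.4 and HISAT2 2.1.0, beside fastp 0.18.0, DESeq2 1.6.3 and Bowtie2 2.2.8, without their roles. The sources used here do not give the counter, genome build, annotation, lncRNA filter or use of strand in counting, so levels of lncRNAs overlapping other genes are uncertain.

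Here the rule for members was applied to the values as deposited, which were then rounded. edgeR 4.0.16 (R 4.3.3) fitted all 9 libraries by stage with filterByExpr and TMM factors, leaving 1913 of 2476 rows, all 18 members among them (6 residual degrees of freedom). Calls were made where the p adjusted after Benjamini-Hochberg over all tested rows was under 0.05. The planned test assumed whole counts as deposited. SEs are the fitted change over the root of the F statistic. Alternatives were other scalings, no filter, the later stages alone, DESeq2 1.42.0, limma-voom 3.58.1, a replicate block, leaving out each library and other limits for members. Every member's values are given, those named by rule (highest levels, largest and smallest changes, most variable, nearest the limits) among them. Rows numbered next to members were chosen after values were seen. Members and lists were chosen with earlier results of these data known. Library pairs within a stage differed by more than sampling noise (chi-square of 15.45 to 125.5 per degree of freedom). The script was tested on simulated counts.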

Additional observations from a re-analysis of the deposited data

How the results depend on the processing

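Among the 8 members tested between P0D and L6D6, the number called lower stayed at 2 and the number called higher at 0 under each alternative run, except that 1, MSTRG.16536.1, was called higher with DESeq2 and 1, the same, with limma-voom. Of 136 refitted values of single members, 130 kept their direction and side of the threshold, 2 newly passed it and 4 changed sign, none of them called. The sign changes came without L6D6 replicate 2 for MSTRG.10246.3 (log2 fold change 0.0385) and without P0D replicate 3 for MSTRG.10246.3, MSTRG.1178.1 and MSTRG.16380.1. Without single libraries these values ran from -0.41 to 0.0822 for MSTRG.10246.3, from -0.13 to 0.56 for MSTRG.1178.1 and from -0.22 to 0.0534 for MSTRG.16380.1.

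Over all lncRNAs, 34 calls became 63 with DESeq2 and 26 to 45 without single libraries. The 9 called higher became 29 with DESeq2, 19 with limma-voom and 6 to 17 without single libraries, the last without P0D replicate 1; the 25 called lower became 20 to 28 without single libraries. Replicate numbers showed no sign of pairing the samples: of 9 same-numbered pairs, 0 had deviations correlated above 0.1 (range -0.161 to 0.0975). Differently numbered pairs ran from -0.237 to 0.202. With 3 libraries a stage, this check cannot exclude a pairing. With a replicate block, 29 lncRNAs were called, 6 higher and 23 lower, and the calls of members were the same 2 falls.

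The membership rule was sensitive to its limits. The 18 members (8 at both stages, 3 at L6D6 only, 7 at P0D only) became 9 (5, 1 and 3) with an L6D4 maximum of 2, and 48 (26, 8 and 14) with a maximum of 10. A later minimum of 10 gave 30 (16 at both, 6 at L6D6 only), and one of 50 gave 7 (2 at both, 2 at P0D only). Counts scaled to depth gave 10 (4 at both, 4 at P0D only). Applied without single libraries, the rule gave 19 to 28 members, 8 to 15 at both, 2 to 8 at L6D6 only and 6 to 14 at P0D only. Leaving out a library removes a condition of the rule, so the total could only stay or rise. All 18 members were kept in each of these runs. The totals moved most without L6D4 replicate 1 (28, of which 15 at both and 5 at L6D6 only). Members at L6D6 only numbered 5 without L6D6 replicate 2 and 8 without L6D6 replicate 3, and those at P0D only numbered 14 without P0D replicate 3. The limit of 20 counts is between 4.67 and 5.54 CPM at L6D6 and P0D, so lower levels could not enter at this depth. Apart from the looser or stricter rule itself, the cause of each change was not tested.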
